A study of Homo sapiens with 4 samples.

Results

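The ATPase MORC2 has been linked in earlier literature to proteins outside the silencing machinery and to genes said to be repressed by it, and the promoters of 7 such genes were examined here. The reported partners are PAK1, PARP1, HDAC4 and ACLY, 4 genes, and the reported repressed targets are CA9, CDKN1A and SORBS2, 3 genes. They were chosen by name from those reports and make up 7 of the 28775 gene rows of the promoter table. Accessibility was read by ATAC-seq, a method that tags exposed DNA with the transposase Tn5, in HEK293T, an aneuploid human embryonic kidney line that carries the SV40 large T antigen. The 4 libraries were 2 from MORC2 KO cells and 2 independent ones from unedited WT cells. Each KO library came from a bulk pool, not a clone, edited by electroporated Cas9 with 1 guide RNA (gRNA 1 in replicate 1, gRNA 2 in replicate 2), so that guide and KO replicate cannot be told apart. No library received another treatment.

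MORC2 compacts DNA and works with the HUSH complex in silencing transposons, young genes and other loci. In the reports behind the choice of genes, the kinase PAK1 phosphorylates MORC2, the enzyme PARP1 modifies it with ADP-ribose after DNA damage, the deacetylase HDAC4 joins it at the CA9 promoter, and the metabolic enzyme ACLY binds it in the cytosol. The comparison asks, for the targets, whether their promoters were more accessible without MORC2, and for the partners, whether their own promoters differed.

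The libraries held 9435801 to 15152636 promoter counts, of which mitochondrial rows took 20.6% to 35.1%, and MORC2 KO replicate 2 was both the deepest library and the one with the lowest mitochondrial share. Fragments at the MORC2 promoter numbered 403 and 639 in KO against 247 and 267 in WT. It was higher in KO by 0.43 on the log2 scale (SE 0.087, adjusted p 2.79e-04 by edgeR), and did not pass under total count scaling, by DESeq2 or without KO replicate 2. Promoter accessibility does not show whether the coding sequence was disrupted, so this value does not check the knockout. Of 27647 promoters tested, 4.45% had an adjusted p under 0.05 (954 higher and 275 lower in KO), and the median log2 fold change was −0.017. The difference between groups moved with abundance: the median log2 fold change was −0.29 in the tenth of promoters with the fewest fragments and 0.083 in the tenth with the most. The cause of this trend was not tested. Promoters of CDH2 and VIM, genes active in this line, lay at the 90.2 and 95.9 percentile of abundance, LHX1 at 52.6, and PAX2 and EYA1 at 36.7 and 34.4. Those of PTPRC, HBB and ALB, which mark blood and liver cells, lay at 3.98, 8.83 and 9.26, while those of MYH6 and GFAP lay at 33.8 and 42.0. None of these promoters passed the test by edgeR, although CDH2, VIM and GFAP had an unadjusted p under 0.05.

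None of the 7 promoters differed between MORC2 KO and WT at an adjusted p under 0.05 by edgeR, against 4.45% of all tested promoters (3.45% higher and 0.995% lower in KO). CA9 was the only one with an unadjusted p under 0.05, a threshold that 20.3% of all tested promoters passed, and no member was called by DESeq2 or limma either. At 2 of the 7, CA9 and SORBS2, both KO libraries lay below both WT libraries, while 50.6% of tested promoters had groups that did not overlap (25.2% higher and 25.4% lower in KO). The median log2 fold change was −0.096 over the 7 members, −0.055 over the 4 partners and −0.44 over the 3 targets. With 2 libraries a group, an exact permutation test of a single promoter cannot give a two-sided p below 0.333, so the calls rest on the spread that edgeR estimated across all promoters. The p-values measure only the spread between these libraries, and the labels do not say from which cultures they came beyond the pools named above.

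The sequences upstream of the start are shown for the 4 members whose 5′-most start in the RefSeq table is also the outer end of the gene. HDAC4 and PARP1 had the highest levels of the 7 and CA9 and SORBS2 the lowest, while PAK1, ACLY and CDKN1A, whose listed start is not the outer end of the gene, are given by their counts only. Each run is the 250 bases before the listed start on GRCh38.p14, written 5′ to 3′ in the direction of transcription: HDAC4 at chr2:239401650-239401899 and PARP1 at chr1:226408094-226408343 on the minus strand, CA9 at chr9:35673678-35673927 on the plus strand, and SORBS2 at chr4:185956373-185956622 on the minus strand. Capitals mark matches on either strand to ACGTG and GCGTG (the core of the hypoxia response element), GGGCGG (the GC box), CCAAT and TATAAA, so that CACGT is ACGTG read on the opposite strand.
HDAC4: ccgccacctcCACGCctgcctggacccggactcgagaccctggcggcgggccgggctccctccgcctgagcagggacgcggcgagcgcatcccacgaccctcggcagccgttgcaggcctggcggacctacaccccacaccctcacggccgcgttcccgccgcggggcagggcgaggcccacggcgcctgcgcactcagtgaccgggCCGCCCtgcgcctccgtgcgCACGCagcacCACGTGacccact
PARP1: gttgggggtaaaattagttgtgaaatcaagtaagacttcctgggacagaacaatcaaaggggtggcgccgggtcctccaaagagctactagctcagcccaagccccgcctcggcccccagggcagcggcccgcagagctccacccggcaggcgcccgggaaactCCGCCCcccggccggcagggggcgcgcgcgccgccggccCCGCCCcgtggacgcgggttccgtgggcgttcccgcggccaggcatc
CA9: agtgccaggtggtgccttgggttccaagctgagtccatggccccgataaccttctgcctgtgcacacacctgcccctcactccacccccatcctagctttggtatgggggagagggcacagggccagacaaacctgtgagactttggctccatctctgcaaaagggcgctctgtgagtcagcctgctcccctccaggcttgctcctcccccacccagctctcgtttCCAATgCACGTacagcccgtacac
SORBS2: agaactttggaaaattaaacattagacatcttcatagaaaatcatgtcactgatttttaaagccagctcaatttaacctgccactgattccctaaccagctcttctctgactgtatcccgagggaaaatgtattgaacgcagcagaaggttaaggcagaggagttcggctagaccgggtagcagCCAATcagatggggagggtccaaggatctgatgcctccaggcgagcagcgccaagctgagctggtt
The fragments were aligned by the authors to CHM13, and the start that each row of the promoter table was counted at is not stated, so the letters show the annotated promoter and not the counted window.

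HDAC4 held 33 CpG dinucleotides in these 250 bases and PARP1 held 26, placing them at the 90.6 and 76.9 percentile of 19554 promoters with a sequence. CA9 held 5 and SORBS2 held 6, at the 25.3 and 28.4 percentile, and the median promoter held 15. The other members did not follow the order of the row levels. CDKN1A, whose row was low, held 27 (79.2 percentile). PAK1 and ACLY, whose rows were higher, held 10 (37.4 percentile) and 23 (69.2 percentile). The listed start of these members is not the outer end of the gene, so these bases may not be those the row counted. Whether the departure comes from this was not tested. Across these 19554 promoters the number of CpG dinucleotides and the WT level were related, with a Spearman rho of 0.613. This is a description across promoters of the same libraries, which are not independent replicates. Promoters with 5 to 9 CpG dinucleotides had a median WT level of 7.90, and those with 30 to 60 had a median of 36.2. Both medians are counts scaled by the total count of each library, mitochondrial rows included and without TMM. They are not on the scale of the CPM given below, which are counts scaled by TMM to a common library size.

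In CA9, the single ACGTG lay on the opposite strand from 18 to 14 bases before the start, next to a CCAAT from 24 to 20 bases before it. ACGTG was found in 20.1% of the 19554 promoters and GCGTG in 36.6%. HDAC4 had an ACGTG on each strand, overlapping as CACGTG from 13 to 8 bases before the start, and 2 matches to GCGTG. The GC box, GGGCGG, present in 51.0% of promoters, matched 2 times in PARP1 and 1 time in HDAC4, and had no match in CA9 or SORBS2. It matched 2 times in PAK1, 3 times in ACLY and 4 times in CDKN1A, the most of any member, so its number did not separate partners from targets. SORBS2 had a CCAAT from 66 to 62 bases before the start, a motif held by 34.0% of promoters. TATAAA, held by 9.65%, matched none of the 4. These are letter matches and say nothing of whether a factor was bound.

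**Figure D1:**
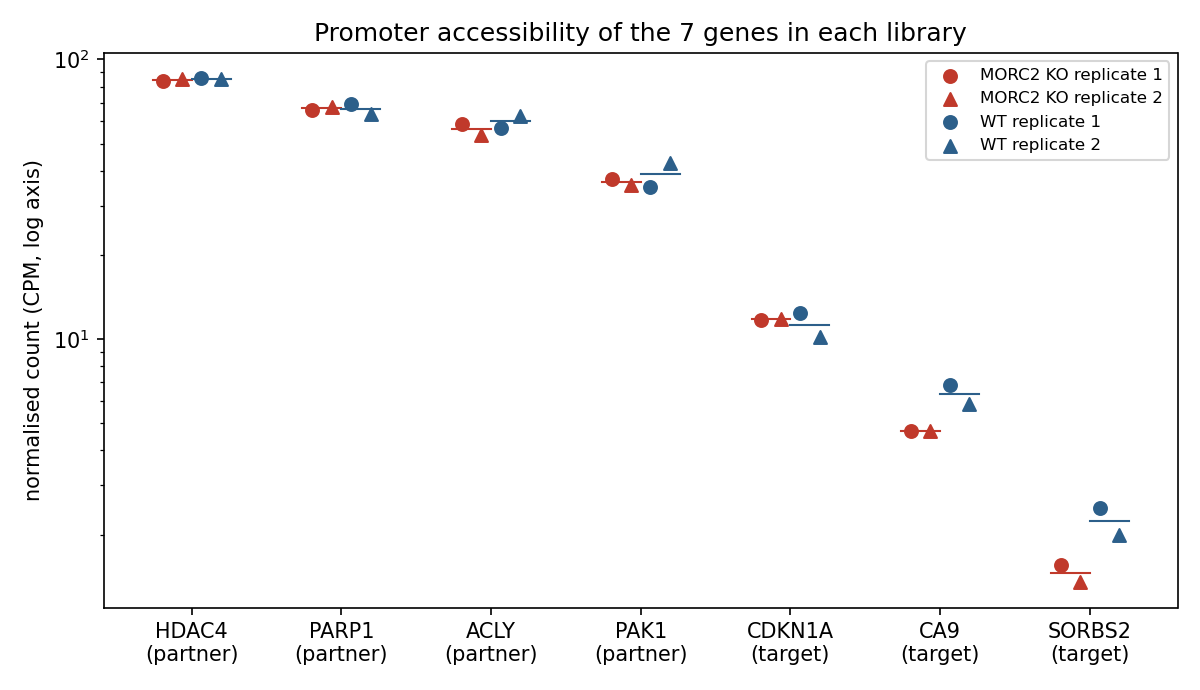
Normalised count (CPM, log axis) of each of the 7 promoters, highest first, in the 2 MORC2 KO and 2 WT libraries, 1 point per library. The rows of the 4 partners lie above those of the 3 targets in every library, and the KO points lie below the WT points at CA9 and SORBS2.

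The 4 partner promoters were open in these cells and the 3 target promoters were lower in each library. These are levels of rows, and the start each row was counted at is not stated. The neighbouring row DINOL, whose listed start is 155 bases from that of CDKN1A, lay at 32.8 to 38.9 CPM. PAK1 lay at 35.1 to 42.5 CPM and CDKN1A at 10.2 to 12.4 CPM. The place of CDKN1A below the partners therefore holds for its row and may not hold for its listed start. In WT cells the order was HDAC4 (85.4 ± 0.435 CPM, SD, n = 2), PARP1 (66.5 ± 4.02), ACLY (60.0 ± 4.25), PAK1 (38.8 ± 5.25), CDKN1A (11.3 ± 1.53), CA9 (6.36 ± 0.696) and SORBS2 (2.24 ± 0.353). This order was the same in all 4 libraries, and the WT libraries of neighbours in it did not overlap. The closest pair was PARP1 and ACLY, whose ratio was 1.11 in the WT mean and 1.01 in WT replicate 2, and whose ranges of mean ± SD overlapped. All promoter windows are meant to be of equal length, so levels were compared without a length correction, as the accessibility of a window and not as expression.

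HDAC4 is a class IIa histone deacetylase that shuttles between nucleus and cytoplasm and restrains MEF2 factors. In replicates 1 and 2, its promoter held 912 and 1456 fragments in KO against 825 and 768 in WT. On the scaled level the 4 libraries lay between 83.6 and 85.7 CPM and the groups overlapped. The log2 fold change was −0.013 (SE 0.064, 95% interval −0.14 to 0.11, adjusted p 0.932). On this TMM scale, a difference of more than 1.08-fold higher or 0.909-fold lower lay outside the interval. With total count scaling the value itself was 0.12, above the upper end of that interval. The next row in gene order, the divergent HDAC4-AS1, held 912, 1456, 821 and 767 fragments, within 0.485% of HDAC4 in each library. Its listed start is 213 bases from that of HDAC4, and the rows share nearly all fragments and are not separate observations. The promoter most like HDAC4 over the 4 libraries was CHPF, with a root mean square difference of 0.018 in log2 CPM, and 316 promoters lay within 0.1 of HDAC4.

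PARP1 is the main nuclear enzyme that attaches ADP-ribose chains to proteins at DNA breaks. Its promoter held 720 and 1152 fragments in KO against 668 and 575 in WT, or 66.0, 67.5, 69.4 and 63.7 CPM. WT replicate 1 was the highest and WT replicate 2 the lowest, so both KO values lay between them. KO exceeded WT by 0.0066 on the log2 scale (SE 0.067, 95% interval −0.12 to 0.14, adjusted p 0.967), the smallest difference of the 7. Its neighbours in gene order, LIN9, a cell cycle regulator, and STUM, had log2 fold changes of 0.082 and 0.039, with adjusted p of 0.547 and 0.834. Closest in pattern was ARF3, at 0.012, among 503 promoters within 0.1.

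ACLY makes cytosolic acetyl-CoA from citrate, the carbon source of fatty acid and sterol synthesis. Its promoter held 643 and 919 fragments in KO against 549 and 569 in WT. KO replicate 2 was the lowest at 53.9 CPM and WT replicate 2 the highest at 63.0 CPM, while KO replicate 1 at 59.0 CPM lay above WT replicate 1 at 57.0 CPM. The log2 fold change of −0.097 (SE 0.069, 95% interval −0.23 to 0.039, adjusted p 0.433) was below the median of 0.075 of promoters of like abundance. The flanking rows KLHL11 and ODAD4 had values of 0.053 and 0.15, with adjusted p of 0.768 and 0.302. The most similar pattern was that of PRKCSH, at 0.023, among 257 promoters within 0.1.

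PAK1 is a serine/threonine kinase activated by the small GTPases RAC1 and CDC42. Its promoter held 407 and 604 fragments in KO against 338 and 384 in WT, or 37.3, 35.4, 35.1 and 42.5 CPM. Only WT replicate 2 stood above the others, and the groups overlapped. The log2 fold change was −0.096 (SE 0.080, 95% interval −0.25 to 0.061, adjusted p 0.513). The flanking rows GDPD4 and LINC03030 were low, with at most 58 fragments in a library, and had values of −0.20 and −0.31 and adjusted p of 0.699 and 0.480. ZNF557 was the closest in pattern, at 0.014, among 221 promoters within 0.1.

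CA9 encodes carbonic anhydrase IX, a cell surface enzyme that is induced by hypoxia and regulates pH. Its promoter held 51 and 80 fragments in KO against 66 and 53 in WT. The deeper KO library had a higher raw count, but after scaling the KO libraries lay at 4.68 and 4.69 CPM and the WT libraries at 6.85 and 5.87 CPM. The KO values were both below the WT values, and the 2 KO libraries differed by less than the 2 WT libraries did. The order also held without TMM: scaled by nuclear fragments alone, the levels were 6.66 and 6.65 in KO and 10.00 and 8.66 in WT, and within the ranking of all promoters CA9 lay at the 31.1 and 31.9 percentile in KO and at 36.2 and 33.8 in WT. The log2 fold change was −0.44 (SE 0.20, 95% interval −0.84 to −0.050), a fold of 0.735 with an interval of 0.560 to 0.966. The unadjusted p was 0.0273 and the adjusted p 0.185, so CA9 did not pass the test over all promoters. Promoters of like abundance had a median of −0.18, and with offsets that follow abundance CA9 moved to −0.26 with an adjusted p of 0.606. The direction was lower accessibility in KO, and CA9 was not higher in any KO library. MIR6750 was closest in pattern, at 0.028, and 43 promoters lay within 0.1. The log2 fold change of MIR6750, −0.44 (adjusted p 0.190), is near that of CA9 through this choice and is no separate observation. Beside CA9 in gene order, ARHGEF39 and TPM2 had values of 0.15 and 0.025, with adjusted p of 0.389 and 0.911.

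CDKN1A encodes p21, the inhibitor of cyclin-dependent kinases through which p53 arrests the cell cycle. Its promoter held 128 and 202 fragments in KO against 119 and 92 in WT. At 11.7 and 11.8 CPM, both KO libraries lay between WT replicate 1 at 12.4 CPM and WT replicate 2 at 10.2 CPM. A log2 fold change of 0.062 (SE 0.14, 95% interval −0.21 to 0.34, adjusted p 0.837) was obtained, so a change of up to 1.26-fold higher or 0.863-fold lower could not be told from none at this depth. The SV40 large T antigen that HEK293T carries binds p53. The labels name HEK293T for all libraries, as do the study's results and its ATAC-seq methods. Its account of how the knockout was made names HEK293, the parent line without large T. Which line the pools came from was not tested.

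The CDKN1A locus carries long non-coding RNA genes that respond to DNA damage, DINOL and PANDAR. DINOL, the next row in gene order, held 390, 664, 325 and 296 fragments, with both KO libraries above both WT libraries after scaling. Its difference was 0.18 on the log2 scale (SE 0.083, adjusted p 0.201). PANDAR held 67, 108, 62 and 46 fragments and had a value of 0.11 with an adjusted p of 0.779. DINOL's listed start is 155 bases from the listed start of CDKN1A, yet its row held more fragments in each library, so the rows of DINOL and CDKN1A were not counted over nearly the same window. KCNA2 was the closest in pattern to CDKN1A, at 0.025, among 57 promoters within 0.1.

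SORBS2 encodes an adaptor protein of the actin cytoskeleton and of cell adhesions, also called ArgBP2. Its promoter had the fewest fragments of the 7, with 17 and 23 in KO against 24 and 18 in the WT libraries. Scaled, the KO libraries lay at 1.56 and 1.35 CPM and the WT libraries at 2.49 and 1.99 CPM, and both KO libraries were below both WT libraries. By rank, however, KO replicate 1 at the 6.36 percentile and WT replicate 2 at 6.73 were close. For SORBS2 the log2 fold change was −0.65 (SE 0.33, 95% interval −1.30 to 0.0012, adjusted p 0.247), a fold of 0.638 with an interval of 0.407 to 1.00. Promoters of like abundance had a median of −0.29, and with offsets that follow abundance the value was −0.36 with an adjusted p of 0.710. At this depth neither no difference nor a loss to 0.407-fold could be distinguished. The reference used for the sequences lists 8 starts for SORBS2, and 1 row in the table stands for all. That listing may be incomplete for other members: PAK1 has 1 listed start but 37 curated RefSeq transcripts. The pattern of MIR3145 was the closest, at 0.056, and 9 promoters lay within 0.1. The log2 fold change of MIR3145, −0.69 (adjusted p 0.223), is likewise near that of SORBS2 through this choice. The adjacent TLR3, a receptor for double-stranded RNA, held 104, 156, 69 and 53 fragments, a difference of 0.51 on the log2 scale (adjusted p 0.0592), opposite in sign to SORBS2. PDLIM3 on the other side had a value of 0.050 with an adjusted p of 0.816.

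**Figure D2:**
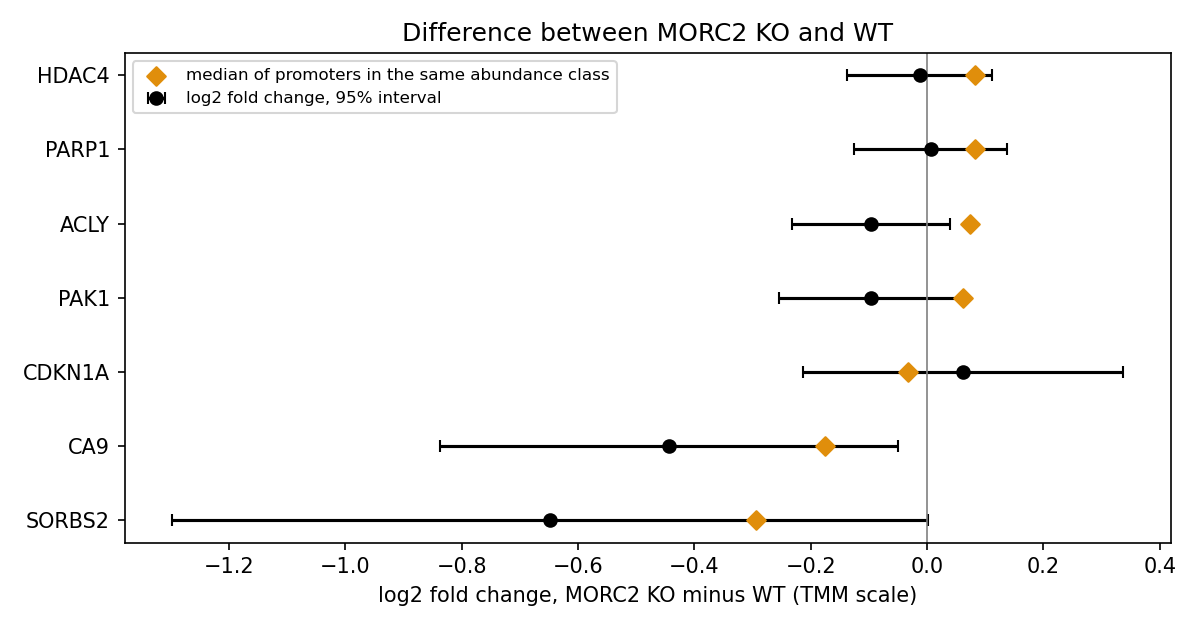
Log2 fold change of each of the 7 promoters between MORC2 KO and WT (2 libraries each, black points with 95% intervals), beside the median of the tenth of all tested promoters with like abundance (orange). The intervals of all members but CA9 include 0, and CA9 and SORBS2 lie lower than the other 5, as do the medians of their abundance classes.

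The genes that work beside the members were also examined, in 9 lists. In all, 125 of 126 listed genes were tested, and 5 of them (4.00%, against 4.45% of all tested promoters) were higher in KO at an adjusted p under 0.05, while none was lower. At an unadjusted p under 0.05 there were 24 of the 125, of which 20 were higher, against 20.3% of all tested promoters. Over all tested promoters, 3174 of the 5626 at that threshold were higher. The median log2 fold change of the listed genes was 0.027, and 75 of the 125 lay above 0, against 46.7% of all tested promoters. The part of abundance in this was not tested. The 5 that rose lost the call under total count scaling, under offsets that follow abundance and by DESeq2.

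Around PAK1, the PAK kinases and their activators numbered 13 and none passed the test, nor did any have an unadjusted p under 0.05. The median was −0.024, with 6 above 0, and values ran from −0.35 at PAK3 to 0.29 at ARHGEF6, an exchange factor for RAC1 and CDC42. Around PARP1, none of the 14 genes of ADP-ribosylation and single-strand break repair passed, with 2 at an unadjusted p under 0.05. The median was 0.085, 11 lay above 0, and values ran from −0.11 at the scaffold XRCC1 to 0.22 at APTX, which removes AMP from failed ligation ends. All of the 14 but PARG were in abundance classes whose medians over all promoters ran from 0.057 to 0.083. The part of abundance in this list median was not tested.

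Around HDAC4, 1 of 13 tested genes of the class IIa deacetylases and their partners rose, with a list median of 0.026. It was CAMK4, a calcium-dependent kinase whose action on these deacetylases favours their export from the nucleus. CAMK4 held 505 and 837 fragments in KO and 384 and 353 in WT, that is, 0.28 on the log2 scale (SE 0.076, adjusted p 0.0139). HDAC5, the paralogue of HDAC4, had the lowest value at −0.12 (adjusted p 0.467). MEF2C, a target of these deacetylases, had only 1 to 6 fragments per library and was not tested.

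Around ACLY, 2 of 14 genes of lipogenesis rose, and the list median was −0.042, with 5 above 0. ME1, which makes NADPH for fatty acid synthesis, held 461 and 777 fragments in KO and 371 and 313 in WT, a value of 0.27 (SE 0.078, adjusted p 0.0230). ELOVL6, which elongates fatty acids, held 726 and 1123 fragments in KO and 574 and 474 in WT, a value of 0.24 (SE 0.069, adjusted p 0.0230). The lowest was THRSP, at −0.19 with an adjusted p of 0.591.

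CA9 belonged to a family and to a response, and neither list had a call. Of the 14 other carbonic anhydrases, 4 lay above 0 and the median was −0.091. CA7, a cytosolic member, had the lowest value, −0.54 with an adjusted p of 0.0637, and held 61 and 95 fragments in KO and 72 and 79 in WT. CA5A had the highest, 0.28 with an adjusted p of 0.480, and 4 members had an unadjusted p under 0.05. CA7 was called lower at a mean count of at least 50 (−0.57, adjusted p 0.0446), and CA11 without WT replicate 1 (−0.37, adjusted p 0.0061). Of 16 hypoxia response genes, 14 lay above 0, with a median of 0.064 and values from −0.064 at NDRG1 to 0.18 at PGK1, the glycolytic kinase. CA9, at −0.44, lay below each hypoxia gene listed. The hypoxia genes were also more abundant, in abundance classes whose medians over all promoters ran from 0.057 to 0.083 against −0.18 in that of CA9, and the part of abundance in their difference was not tested.

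Around CDKN1A, none of 7 other cyclin-dependent kinase inhibitors passed the test, with a median of 0.068 and values from −0.054 at CDKN1C to 0.10 at CDKN3, and none had an unadjusted p under 0.05. Of 22 p53 pathway genes, 1 rose and 16 lay above 0, with a median of 0.050. The called gene was CCNG1, cyclin G1, a p53 target, with 753 and 1067 fragments in KO and 525 and 519 in WT, a value of 0.22 (SE 0.069, adjusted p 0.0344). BBC3, which encodes the apoptosis inducer PUMA, was lowest at −0.19 with an adjusted p of 0.291.

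Around SORBS2, 1 of 12 genes of the SORBS family and adhesion partners rose, with a list median of 0.036. It was TLN1, talin, which couples integrins to actin, with 1023 and 1566 fragments in KO and 802 and 694 in WT, a value of 0.21 (SE 0.064, adjusted p 0.0324). TLN1 also lies 3 positions from CA9 in gene order. The paralogue SORBS3 was lowest, at −0.17 with an adjusted p of 0.620.

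**Figure D3:**
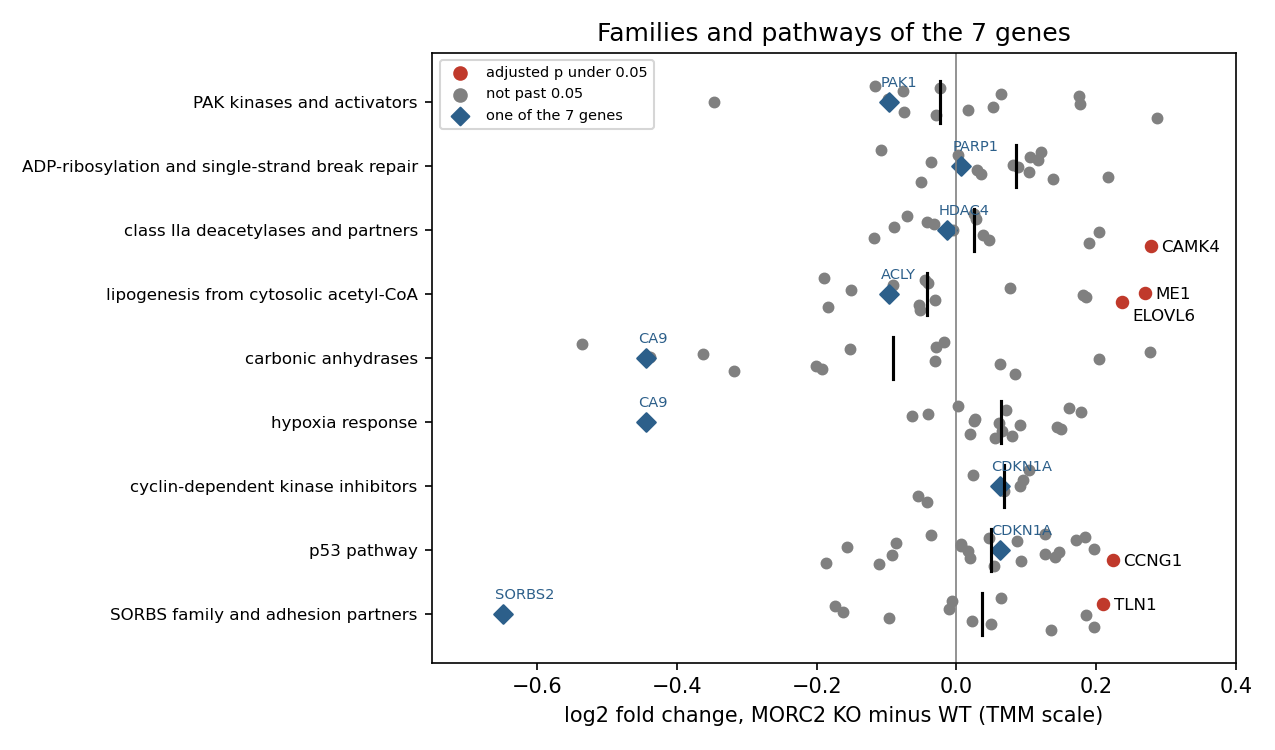
Log2 fold change (MORC2 KO minus WT) of each tested gene in the 9 lists, 1 point per gene, with the list median as a bar and the member the list belongs to as a diamond. The 5 genes with an adjusted p under 0.05 (red) all lie to the right of 0, and the diamond of CA9 lies left of all 16 hypoxia genes, which are promoters of higher abundance.

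Under the other scalings, filters and tools, CA9 stayed below 0, between −0.48 and −0.26 in 13 fits, and SORBS2 between −0.65 and −0.32 in the 12 fits that tested it. CDKN1A ran from 0.027 to 0.20 in those 13 fits and was −0.066 without WT replicate 2. The partners crossed 0, with the widest ranges among them at HDAC4, from −0.096 to 0.12, and PARP1, from −0.071 to 0.14. These ranges were not narrower than that of CA9 by any clear margin, and the plot of settings shows the values.

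**Figure D4:**
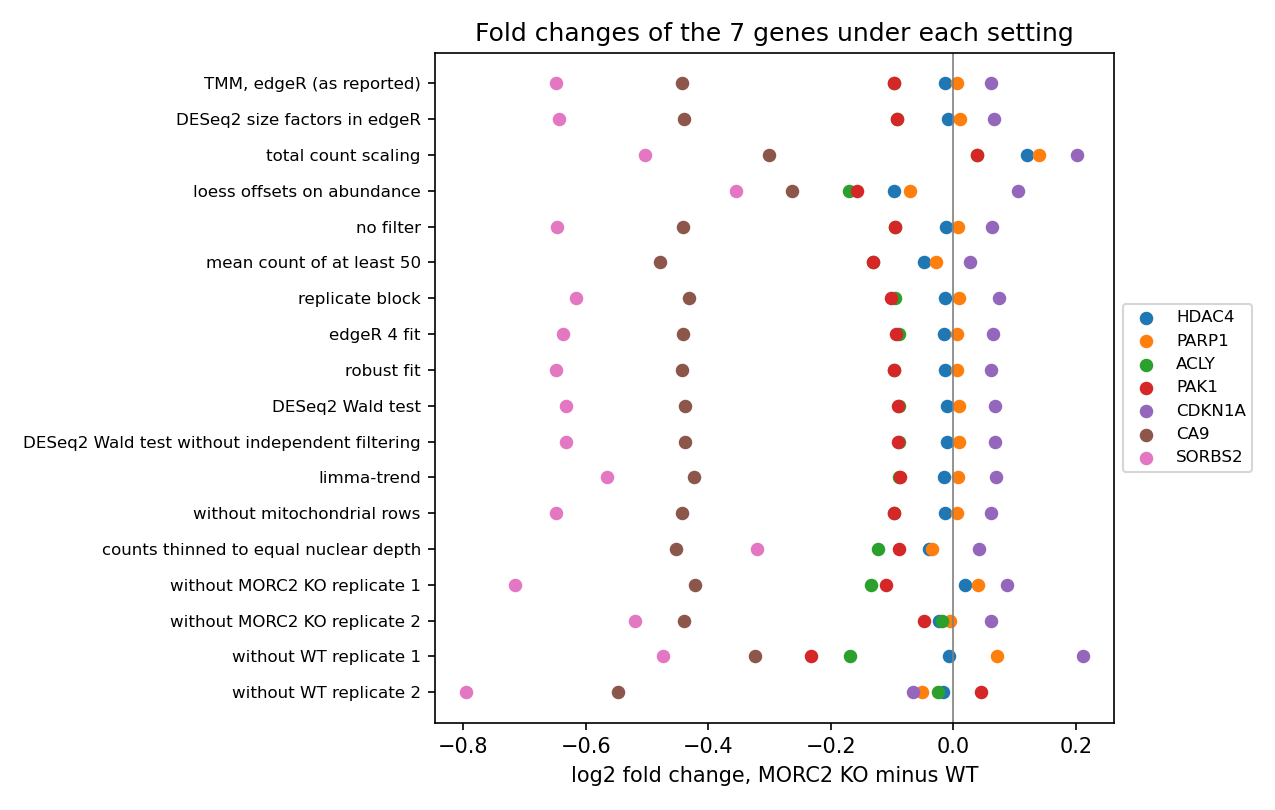
Log2 fold change of the 7 promoters (1 colour per gene) under each scaling, filter, tool and left-out library. CA9 and SORBS2 lie below 0 in every setting in which they were tested, while PARP1, HDAC4, PAK1 and ACLY stay near 0 and change side; CDKN1A changes side without WT replicate 2.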

How the data were processed

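Paired-end ATAC-seq reads were trimmed, aligned with bowtie2 to the telomere-to-telomere assembly CHM13, filtered by mapping quality and cleared of duplicates with Picard by the authors. As deposited, the promoter table gives unnormalised fragment counts for each gene and library. Promoters were defined in the study as windows of 2 kb about the transcription start. The table had 28775 rows, of which 28763 were given symbols from a RefSeq table on GRCh38.p14, whose assembly differs from that of the alignment, so it was used for names, gene order and, in its own coordinates, sequences. A peak list of the WT cells was not used here.

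Low rows were removed by filterByExpr, leaving 27647, and libraries were scaled by TMM. Differences between MORC2 KO and WT were tested in edgeR 4.0.16 (R 4.3.3) with a quasi-likelihood fit in its legacy form, on all 4 libraries and without covariates. Benjamini-Hochberg adjustment of the two-sided p ran over all tested promoters, and an adjusted p under 0.05 was called. SEs and 95% intervals of fold changes come from the F statistics. CPM are TMM-scaled counts. The script was tested on simulated data. Median counts per promoter were 132 to 250 per library, and fragments carry no molecular identifiers, so counting error alone was not taken as the error. Replicates did not agree within sampling noise (chi-square per degree of freedom 1.20 and 1.33) and were counted separately.

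The members, lists, tests and alternatives were chosen with earlier results of these data known. Named are the 7 members, each called list gene, the highest and lowest gene of each list, the rows beside each member in gene order, the promoter most like it over the 4 libraries by root mean square difference in log2 CPM (prior count 2) and MORC2. TLN1's distance from CA9 was taken from the search of 3 positions to each side. The alternatives covered scaling, filters, the threshold, the edgeR 4 fit, a robust fit, a replicate block, DESeq2 1.42.0, limma-trend 3.58.1, mitochondrial rows, thinning to 6119609 nuclear fragments and leaving out each library. One marker promoter is not reported here.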

Additional observations from a re-analysis of the deposited data

How the results depend on the processing

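None of the 7 members was called under any alternative, at thresholds of 0.1 and 0.01, or without any library. Of their single values under the alternatives and left-out libraries, 107 kept their direction and 11 reversed. With total count scaling, which moved the median of all promoters from −0.017 to 0.12, the log2 fold change was 0.038 at PAK1, 0.12 at HDAC4 and 0.039 at ACLY. PARP1 was −0.071 with loess offsets on abundance, −0.028 with a mean count of at least 50 and −0.035 with thinned counts. Without single libraries the values ran from −0.23 to 0.045 at PAK1, −0.052 to 0.072 at PARP1, −0.024 to 0.019 at HDAC4, −0.17 to −0.018 at ACLY, −0.55 to −0.32 at CA9, −0.066 to 0.21 at CDKN1A and −0.80 to −0.47 at SORBS2. CA9 ranged from −0.48 to −0.26 over 13 alternatives (adjusted p 0.140 to 0.978) and SORBS2 from −0.65 to −0.32 over 12, since it was not tested at a mean count of at least 50. The cause of the reversals was not tested.

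The number of called promoters and listed genes moved more. It was 2249 and 9 at an adjusted p under 0.1, 355 and 0 under 0.01, 20 and 0 with total count scaling, 402 and 1 (PPM1D, lower) with loess offsets, 787 and 2 (CAMK4, higher, and CA7, lower) at a mean count of at least 50, 717 and 3 with limma-trend, and 7 and 0 by DESeq2 with or without its independent filter, against 1229 and 5. Beside the counts of 0, 13 listed genes with total count scaling and 8 by DESeq2 had an unadjusted p under 0.05. The share of calls that were higher in KO was 77.6% as reported, 95% when scaled by total count, 55.5% under loess offsets and 66.1% at a mean count of at least 50. With a replicate block, 765 promoters and 2 listed genes were called, although the deviations of same-numbered libraries were uncorrelated (r −2.66e-04), which gives no pairing. Without single libraries 41 to 1637 promoters and 0 to 10 listed genes were called: 861 and 2 without MORC2 KO replicate 1, 41 and 0 without MORC2 KO replicate 2, 1637 and 10 (CA11 lower, the other 9 higher) without WT replicate 1, and 230 and 0 without WT replicate 2, where the lone library of a group was assumed to vary like the others. CAMK4 was called in 9 of 13 alternative fits, ELOVL6 in 8, ME1 in 7, CCNG1 in 6 and TLN1 in 5.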
